A study of Rattus norvegicus with 9 samples.

Results

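The genes described here are 9 textbook targets of the transcription factor p53, namely Mdm2, Cdkn1a, Fas, Aen, Zmat3, Plk2, Ccng1, Gadd45a and Btg2, followed in cultured rat Schwann cells. Every probe set annotated to exactly 1 of these genes was taken, which gave 14 of the 31042 probe sets tested and 8 of the 14213 genes that they cover. Btg2 was not analysed here. Mdm2 and Fas had 3 probe sets each, Cdkn1a and Aen 2 each, and Zmat3, Plk2, Ccng1 and Gadd45a 1 each. The genes were picked by name and not by their values in a contrast, although earlier results of these data were known when they were picked.

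The cells were primary Schwann cells from rat sciatic nerve, the glia that wrap peripheral axons, and all 9 cultures were transfected transiently with RNAi oligonucleotides and harvested 48 hours later. In NF1 RNAi + U0126 cells the oligonucleotides targeted Nf1 and U0126, an inhibitor of the kinase MEK, was present. NF1 RNAi cells received the Nf1 oligonucleotides without the inhibitor, and Control RNAi cells received a scrambled sequence without it. Each group had 3 arrays, 1 per culture, described by the submitters as independent biological replicates. A group with the scrambled sequence and U0126 was not analysed here, so every effect of U0126 below is an effect in cells with Nf1 knocked down. Neither the animals' age nor the dose of U0126 is stated in the labels.

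p53 is a sequence-specific activator that cells stabilise after DNA damage, oncogene signalling or other stress, and its targets stop the cell cycle, repair DNA or start apoptosis. Mdm2 is an E3 ubiquitin ligase that marks p53 for degradation and is itself switched on by p53, so the pair forms a negative feedback loop, and Cdkn1a encodes p21, which inhibits cyclin-dependent kinases. Nf1 encodes neurofibromin, a protein that switches Ras off, and MEK and its substrate ERK act downstream of Ras. In other cell types, ERK signalling is itself known to raise transcription of both Mdm2 and Cdkn1a, and loss of neurofibromin in the Schwann cell lineage gives rise to neurofibromas.

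The deposited values were intensities on a linear scale, between 5.62 and 25800.2, and the array medians lay between 94.6 and 96.7. Differences were tested on log2(intensity + 1) with limma over all probe sets, with Benjamini-Hochberg adjustment and a threshold of 0.05 on the adjusted p. Nf1 averaged 45.0 ± 5.80 in NF1 RNAi + U0126 cells, 41.7 ± 0.667 in NF1 RNAi cells and 88.3 ± 15.9 in Control RNAi cells (intensity, SD, n = 3 each), so the targeted gene was lower in both groups that received its oligonucleotides. Control RNAi replicate 1 stood apart from the other Control RNAi arrays, with log2 differences whose SD was 0.31 and 0.358, against 0.152 between the other pair of controls. The counts of p53 targets, and their differences from Control RNAi, are given below without it as well. Of 9 probe sets for Schwann cell markers, 7 or 8 reached log2 6 on each array, with S100b, a calcium-binding protein of glia, at a mean of 13.66 in NF1 RNAi + U0126 cells, 14.04 in NF1 RNAi cells and 13.24 in Control RNAi cells. Egr2, a myelination factor in the same list, was low, with means of log2 5.20, 5.76 and 6.77 in the same order with 1 probe set and of 4.41, 4.46 and 4.53 with the other. All 6 endothelial probe sets stayed below log2 6 on every array.

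The promoters are shown because p53 targets are defined by the sequence that p53 reads, which some of these windows hold. RefSeq windows on build GRCr8, from 250 bases before to 50 bases after the transcription start used there, were found for 7 of the 8 measured genes. They were searched for the p53 decamer, the palindromic 10-base consensus of which a full response element holds a pair. An exact decamer lay in the windows of 4 of these 7 genes, and in 7.98% of all 33469 promoter windows of the same length. A pair of decamers up to 13 bases apart with at most 2 mismatches in all lay in the windows of the same 4 genes, and in 3.53% of all windows. The windows of Cdkn1a (chr20:7150682-7150981, plus strand), Aen (chr1:142224283-142224582, plus strand), Ccng1 (chr10:25684827-25685126, minus strand) and Gadd45a (chr4:97486750-97487049, minus strand) follow, written 5′ to 3′ along the gene with the pair in capitals, and then that of Mdm2 (chr7:55200742-55201041, minus strand), which held no such pair.
Cdkn1a: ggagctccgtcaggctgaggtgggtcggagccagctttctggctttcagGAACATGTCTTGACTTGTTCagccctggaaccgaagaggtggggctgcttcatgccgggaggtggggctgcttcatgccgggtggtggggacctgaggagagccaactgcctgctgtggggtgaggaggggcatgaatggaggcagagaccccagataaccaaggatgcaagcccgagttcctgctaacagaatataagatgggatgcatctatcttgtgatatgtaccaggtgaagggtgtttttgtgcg
Aen: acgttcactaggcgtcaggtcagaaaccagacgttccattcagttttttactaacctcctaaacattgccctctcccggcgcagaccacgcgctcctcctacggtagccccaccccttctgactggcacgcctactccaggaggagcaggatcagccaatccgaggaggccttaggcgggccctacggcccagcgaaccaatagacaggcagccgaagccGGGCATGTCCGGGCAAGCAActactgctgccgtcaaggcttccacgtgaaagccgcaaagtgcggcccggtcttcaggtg
Ccng1: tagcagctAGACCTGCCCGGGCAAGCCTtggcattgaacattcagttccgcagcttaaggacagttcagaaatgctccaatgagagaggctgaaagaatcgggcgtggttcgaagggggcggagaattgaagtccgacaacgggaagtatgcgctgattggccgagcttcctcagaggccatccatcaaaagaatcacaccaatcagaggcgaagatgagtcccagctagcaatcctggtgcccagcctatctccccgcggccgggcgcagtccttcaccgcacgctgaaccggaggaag
Gadd45a: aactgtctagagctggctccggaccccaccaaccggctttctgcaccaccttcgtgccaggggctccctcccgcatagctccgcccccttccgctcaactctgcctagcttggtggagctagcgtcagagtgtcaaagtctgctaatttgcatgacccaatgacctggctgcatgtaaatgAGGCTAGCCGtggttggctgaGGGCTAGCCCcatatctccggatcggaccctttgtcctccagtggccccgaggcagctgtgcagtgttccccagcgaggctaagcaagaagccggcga
Mdm2: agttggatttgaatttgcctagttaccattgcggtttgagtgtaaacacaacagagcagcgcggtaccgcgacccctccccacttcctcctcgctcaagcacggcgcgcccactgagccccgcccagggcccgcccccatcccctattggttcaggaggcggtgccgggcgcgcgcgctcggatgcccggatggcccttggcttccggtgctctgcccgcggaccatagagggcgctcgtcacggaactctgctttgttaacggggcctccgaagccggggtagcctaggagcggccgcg

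In Cdkn1a the pair GAACATGTCTTGACTTGTTC ran from position -201 to -182 relative to that start, with 1 mismatch and no spacer. In Ccng1 the pair lay from -242 to -223 with 1 mismatch, and in Aen from -30 to -11 with 2 mismatches. In Gadd45a the 2 decamers lay from -69 to -39, separated by 11 bases. The windows of Fas and Plk2 held no pair, and that of Plk2 held TGACGTCA, the palindromic cyclic AMP response element, which occurs in 1.83% of all windows. A match describes letters and not binding, and response elements outside these windows, such as the well-known intronic ones of Mdm2, were not searched.

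With U0126, 10 of the 14 probe sets rose in NF1 RNAi + U0126 cells relative to NF1 RNAi cells and none fell, whereas 4.45% of all probe sets rose and 5.58% fell in this comparison. The 10 covered 6 of the 8 genes, namely Mdm2, Gadd45a, Aen, Fas, Zmat3 and Ccng1. In 11 probe sets every NF1 RNAi + U0126 array was above every NF1 RNAi array, a pattern found in 14.6% of all probe sets, and in Plk2 every array was below, as in 14% of all. The median log2 difference was 0.97 over the 14 probe sets and 0.02 over all probe sets. Relative to Control RNAi cells, 10 probe sets of 7 genes rose in NF1 RNAi + U0126 cells and none fell, where 14.2% of all probe sets rose and 13.9% fell. Every NF1 RNAi + U0126 array was above every Control RNAi array in 12 of the 14, against 22.8% of all probe sets, and the median log2 difference was 1.15 against 0.05. With the replicate number as a block, 12 rose against NF1 RNAi and 11 against Control RNAi, where 6.44% and 16.6% of all probe sets rose. These comparisons share arrays: the NF1 RNAi + U0126 arrays serve in both, and the NF1 RNAi and Control RNAi arrays are each used again in the comparison of NF1 RNAi with Control RNAi.

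**Figure D1:**
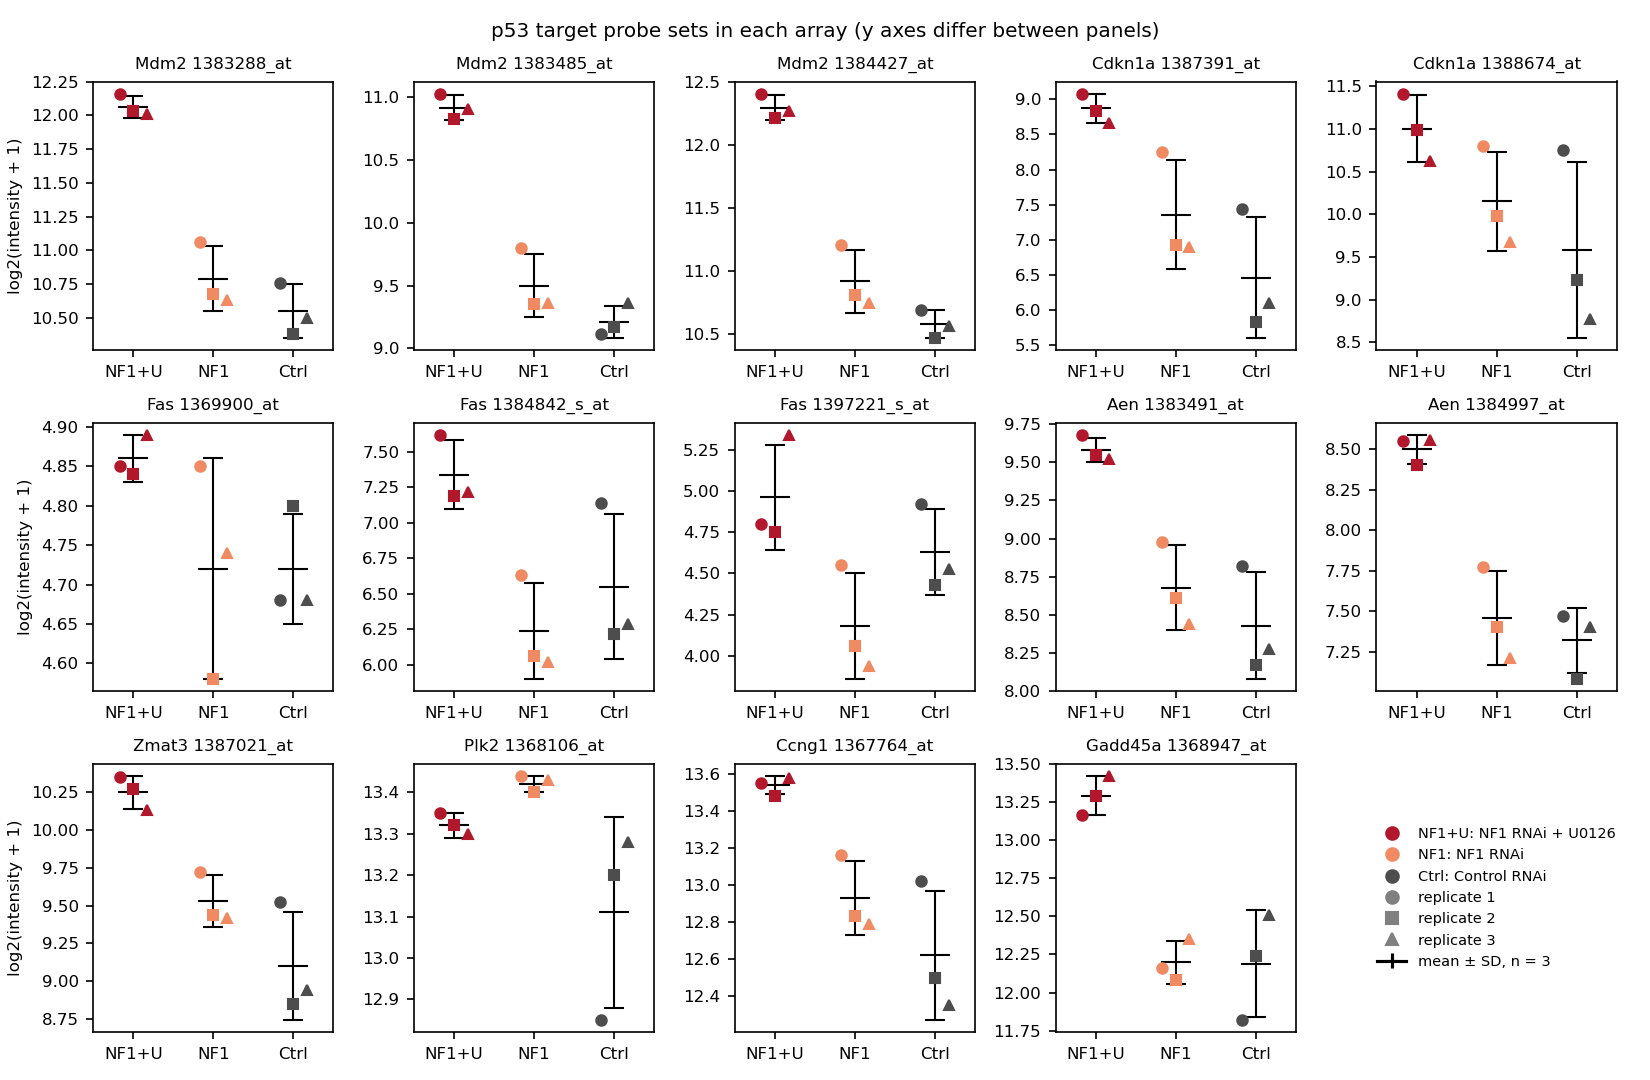
log2(intensity + 1) of the 14 probe sets, 1 panel each with its own vertical scale, with 1 point per array, a shape per replicate number and the mean ± SD of each group (NF1+U for NF1 RNAi + U0126, NF1 for NF1 RNAi, Ctrl for Control RNAi; n = 3 each). In Mdm2 and Gadd45a the NF1 RNAi + U0126 arrays lie above all other arrays, in Cdkn1a replicate 1 is the highest array of each group, and the lowest Plk2 point is Control RNAi replicate 1.

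Mdm2, the ligase that limits p53, gave the same picture with each of its 3 probe sets. Probe set 1384427_at had intensities of 5453, 4781 and 4931 in NF1 RNAi + U0126 cells, 2370, 1800 and 1718 in NF1 RNAi cells and 1654, 1419 and 1516 in Control RNAi cells. The lowest array with U0126 was above the highest of the other 6, and the NF1 RNAi arrays lay just above the Control RNAi arrays without overlap. Its log2 difference was 1.38 ± 0.12 (SE) for NF1 RNAi + U0126 against NF1 RNAi, which is 2.6-fold (limma adjusted p = 0.000263). Probe set 1383288_at had 4563, 4172 and 4123 in NF1 RNAi + U0126 cells, 2138, 1640 and 1588 in NF1 RNAi cells and 1738, 1331 and 1442 in Control RNAi cells. Probe set 1383485_at had 2084, 1819 and 1921 in NF1 RNAi + U0126 cells, 888, 652 and 658 in NF1 RNAi cells and 551, 574 and 657 in Control RNAi cells. Both were high in all 3 arrays with U0126, with NF1 RNAi and Control RNAi arrays overlapping, and their log2 differences with U0126 were 1.27 ± 0.13 and 1.42 ± 0.13 (adjusted p = 0.000505 and 0.000264). Against Control RNAi the 3 log2 differences were 1.52, 1.71 and 1.72. All of these calls held in 9 of 9 fits that left out 1 array, with adjusted p no higher than 0.00466.

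Cdkn1a, which encodes the cyclin-dependent kinase inhibitor p21, varied far more within groups. Probe set 1387391_at had intensities of 541, 458 and 406 in NF1 RNAi + U0126 cells, 304, 120 and 119 in NF1 RNAi cells and 173, 56.0 and 67.8 in Control RNAi cells. Probe set 1388674_at had 2711, 2016 and 1573 in NF1 RNAi + U0126 cells, 1778, 1009 and 816 in NF1 RNAi cells and 1717, 598 and 438 in Control RNAi cells. Replicate 1 was the highest array of every group with both probe sets, and with 1388674_at the replicate 1 arrays without U0126 overlapped the U0126 arrays. The log2 difference of NF1 RNAi + U0126 against NF1 RNAi was 1.51 ± 0.45 for 1387391_at and 0.85 ± 0.48 for 1388674_at, and neither passed (adjusted p = 0.0706 and 0.348). With the replicate number as a block both passed (adjusted p = 0.00421 and 0.0288), and the difference within a replicate number was positive in 3 of 3 numbers, at 0.83, 1.93 and 1.77 for 1387391_at and 0.61, 1 and 0.95 for 1388674_at. Against Control RNAi, 1387391_at rose by 2.41 ± 0.45 (5.3-fold, adjusted p = 0.00349), and 1388674_at differed by 1.42 ± 0.48 (adjusted p = 0.0536, and 0.00119 with the block). Without replicate 1 of all 3 groups, the U0126 differences from NF1 RNAi were 1.85 and 0.97 (adjusted p = 6.68e-05 and 0.0111).

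Gadd45a, a stress protein that acts in growth arrest and DNA repair, had intensities of 9163, 10003 and 10989 in NF1 RNAi + U0126 cells, 4570, 4329 and 5219 in NF1 RNAi cells and 3625, 4848 and 5830 in Control RNAi cells. All 3 U0126 arrays were above the other 6, and the NF1 RNAi arrays lay inside the range of the Control RNAi arrays. It rose by 1.10 ± 0.16 on the log2 scale against NF1 RNAi (2.14-fold, adjusted p = 0.00278) and by 1.10 against Control RNAi (adjusted p = 0.000834). Both calls held in 9 of 9 fits that left out 1 array. Its replicate 1 was the lowest array with U0126 and in the controls, the opposite of Cdkn1a.

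Ccng1, which encodes cyclin G1, a partner of a phosphatase that acts on Mdm2, had intensities of 11993, 11402 and 12266 in NF1 RNAi + U0126 cells, 9169, 7287 and 7104 in NF1 RNAi cells and 8282, 5807 and 5237 in Control RNAi cells. The U0126 arrays did not overlap either other group, while NF1 RNAi and Control RNAi arrays did. The log2 difference against NF1 RNAi was 0.61 ± 0.16 (adjusted p = 0.0461), a call kept in 3 of 9 fits that left out 1 array, where the adjusted p reached 0.161. Against Control RNAi it rose by 0.91 (adjusted p = 0.00268, kept in 9 of 9 such fits).

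Plk2, a polo-like kinase that p53 can induce, was the exception. Its intensities were 10474, 10255 and 10052 in NF1 RNAi + U0126 cells, 11108, 10827 and 11003 in NF1 RNAi cells and 7387, 9417 and 9972 in Control RNAi cells. Every U0126 array was below every NF1 RNAi array and above every Control RNAi array, and Control RNAi replicate 1 was the lowest of all 9. The log2 difference of NF1 RNAi + U0126 against NF1 RNAi was -0.10 ± 0.10 (95% interval -0.33 to 0.13, adjusted p = 0.651), and against Control RNAi 0.21 (-0.02 to 0.44, adjusted p = 0.158). In every group its mean intensity lay at or above the 99.5th percentile of the probe sets.

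Aen, a nuclease that acts in apoptosis, rose with both probe sets. Probe set 1384997_at had intensities of 374, 336 and 376 in NF1 RNAi + U0126 cells, 218, 168 and 147 in NF1 RNAi cells and 176, 135 and 167 in Control RNAi cells. Probe set 1383491_at had 819, 749 and 735 in NF1 RNAi + U0126 cells, 503, 390 and 346 in NF1 RNAi cells and 452, 288 and 310 in Control RNAi cells. The U0126 arrays were the 3 highest with each probe set, and the other 2 groups overlapped. The log2 differences against NF1 RNAi were 1.04 ± 0.15 and 0.91 ± 0.18 (adjusted p = 0.00247 and 0.0126), kept in 9 and 7 of 9 fits that left out 1 array.

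Zmat3, an RNA-binding zinc finger protein, had intensities of 1308, 1231 and 1118 in NF1 RNAi + U0126 cells, 843, 695 and 685 in NF1 RNAi cells and 731, 460 and 490 in Control RNAi cells. The U0126 arrays were above all others, and NF1 RNAi overlapped Control RNAi only through Control RNAi replicate 1. It rose by 0.72 ± 0.17 on the log2 scale against NF1 RNAi (1.65-fold, adjusted p = 0.0248, kept in 4 of 9 fits that left out 1 array) and by 1.15 against Control RNAi (adjusted p = 0.000831, kept in 9 of 9).

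Fas, a death receptor at the cell surface, had 1 probe set near the middle of the arrays and 2 dim ones. Probe set 1384842_s_at had intensities of 196, 145 and 148 in NF1 RNAi + U0126 cells, 98.3, 65.9 and 63.8 in NF1 RNAi cells and 140, 73.5 and 77.4 in Control RNAi cells. The U0126 arrays were above all others, and NF1 RNAi and Control RNAi overlapped. It rose by 1.11 ± 0.26 against NF1 RNAi (adjusted p = 0.0257, kept in 4 of 9 fits that left out 1 array) and by 0.80 ± 0.26 against Control RNAi (adjusted p = 0.0449, kept in 2 of 9). The other 2 were not at log2 6 or more in at least 3 arrays. Probe set 1397221_s_at had 27.0, 25.9 and 39.4 in NF1 RNAi + U0126 cells, 22.4, 15.7 and 14.4 in NF1 RNAi cells and 29.2, 20.6 and 22.1 in Control RNAi cells, and rose against NF1 RNAi by 0.78 ± 0.21 (adjusted p = 0.0436, kept in 2 of 9 fits). Probe set 1369900_at stayed between 22.9 and 28.7 on all arrays, and no difference passed.

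**Figure D2:**
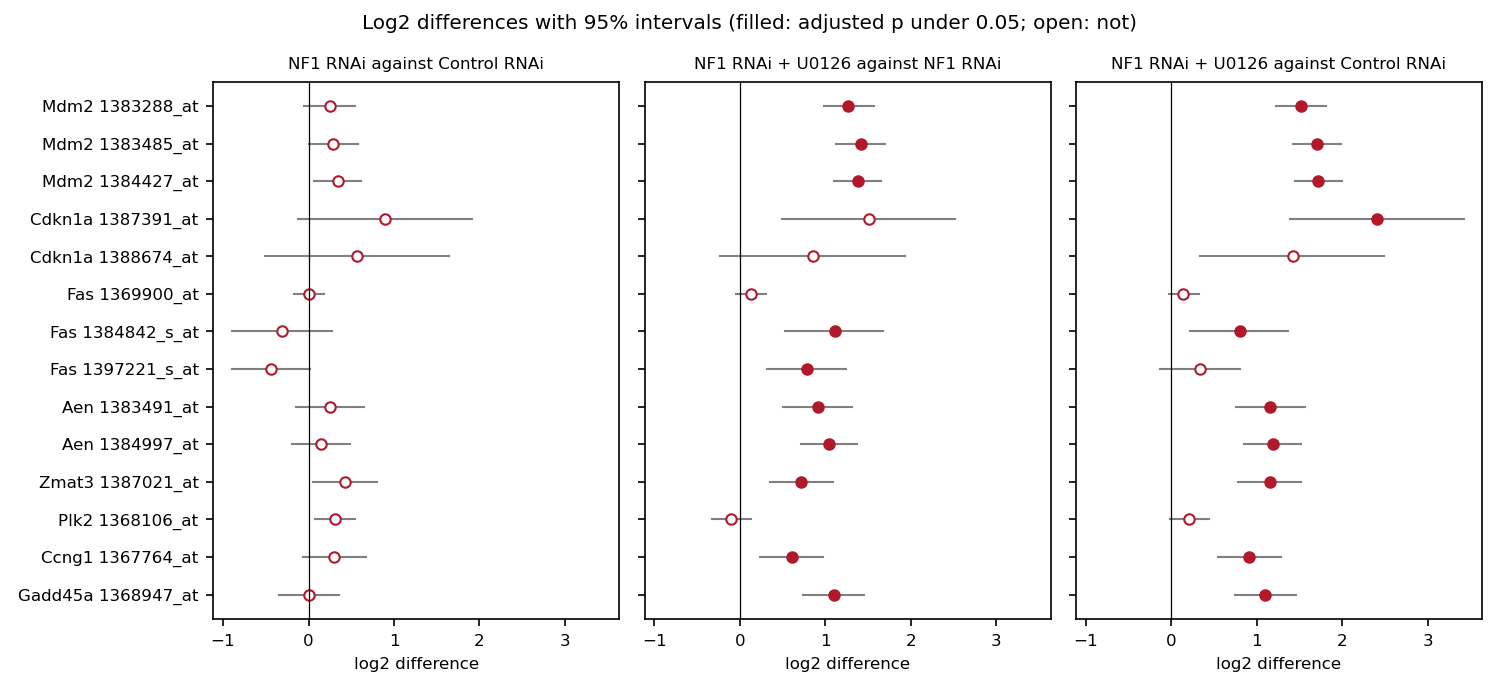
log2 difference of each of the 14 probe sets with its 95% interval, in 3 panels: the left one sets NF1 RNAi against Control RNAi, the middle one sets NF1 RNAi + U0126 against NF1 RNAi, and the right one sets it against Control RNAi. Points are filled where the adjusted p is under 0.05. The points of the U0126 comparisons lie to the right of 0 for all probe sets but Plk2 against NF1 RNAi, while the intervals of NF1 RNAi against Control RNAi mostly cross 0.

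Nf1 knockdown without the inhibitor gave no call among the p53 targets. None of the 14 probe sets passed for NF1 RNAi against Control RNAi, although 20.4% of all probe sets did, and 4 of the 14 had an unadjusted p under 0.05, against 31.4% of all. The median log2 difference was 0.27 for the 14 probe sets and 0.02 for all, and 12 of 14 differences were positive, against 56.5% of all. The values with an unadjusted p under 0.05 belonged to Mdm2 (0.29 ± 0.13 and 0.35 ± 0.12), Zmat3 (0.43 ± 0.17) and Plk2 (0.31 ± 0.10). Arrays did not overlap in 2 of the 14, Mdm2 1384427_at and Plk2, a pattern found in 19.3% of all probe sets. Cdkn1a had the widest interval, from -0.51 to 1.64 for 1388674_at, and Fas 1397221_s_at had the lowest value, -0.44 ± 0.21 (adjusted p = 0.181).

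The replicate block and Control RNAi replicate 1 both decide calls in this comparison. With the replicate number as a block, 4 probe sets passed, namely Mdm2 1383288_at and 1384427_at, Cdkn1a 1387391_at and Zmat3, with adjusted p of 0.0477, 0.0136, 0.0224 and 0.018, and 25.8% of all probe sets passed in that fit. Without Control RNAi replicate 1, 4 probe sets passed, the 2 of Cdkn1a at 1.39 and 1.15 (adjusted p = 0.0254 and 0.0373), Zmat3 at 0.63 (0.00369) and Ccng1 at 0.50 (0.0143), and 19.9% of all probe sets passed. Without Control RNAi replicate 3, Plk2 alone passed (adjusted p = 0.0276). Against Control RNAi without Control RNAi replicate 1, NF1 RNAi + U0126 cells differed by 1.63, 1.66 and 1.78 for Mdm2 and by 2.90 and 2 for Cdkn1a. In that fit the differences were 1.36 and 1.26 for Aen, 1.36 for Zmat3, 1.11 for Ccng1, 0.91 for Gadd45a and 1.09 for Fas 1384842_s_at. All 11 of these probe sets passed. The values were 0.08 for Plk2, 0.48 for Fas 1397221_s_at and 0.12 for Fas 1369900_at, which did not pass, and 28.7% of all probe sets passed in that fit. For NF1 RNAi + U0126 against NF1 RNAi the count of 10 fell to 5 without NF1 RNAi replicate 2 or 3 and to 6 without any 1 of the U0126 arrays.

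Replicate 1 carried the highest value in 9 of the 14 probe sets in NF1 RNAi + U0126 cells, in 13 in NF1 RNAi cells and in 10 in Control RNAi cells. Over all probe sets replicate 1 was the highest in 33% with NF1 RNAi + U0126, 31.3% with NF1 RNAi and 37.6% with Control RNAi. The p53 targets that went the other way in the controls were Plk2, Gadd45a and Mdm2 1383485_at, which were lowest there. Cell cycle genes moved with the same array, with a list median of log2 8.37 in Control RNAi replicate 1, against 6.48 and 6.51 in replicates 2 and 3. The difference between 3' and 5' actin probe sets, a sign of RNA quality, was log2 0.85 to 0.87 in NF1 RNAi + U0126 cells, 0.78 to 0.85 in NF1 RNAi cells, 0.90 in Control RNAi replicate 1, and 0.62 and 0.60 in Control RNAi replicates 2 and 3, so those 2 controls lay below the other 7 arrays. The part of either in the values above was not tested.

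**Figure D3:**
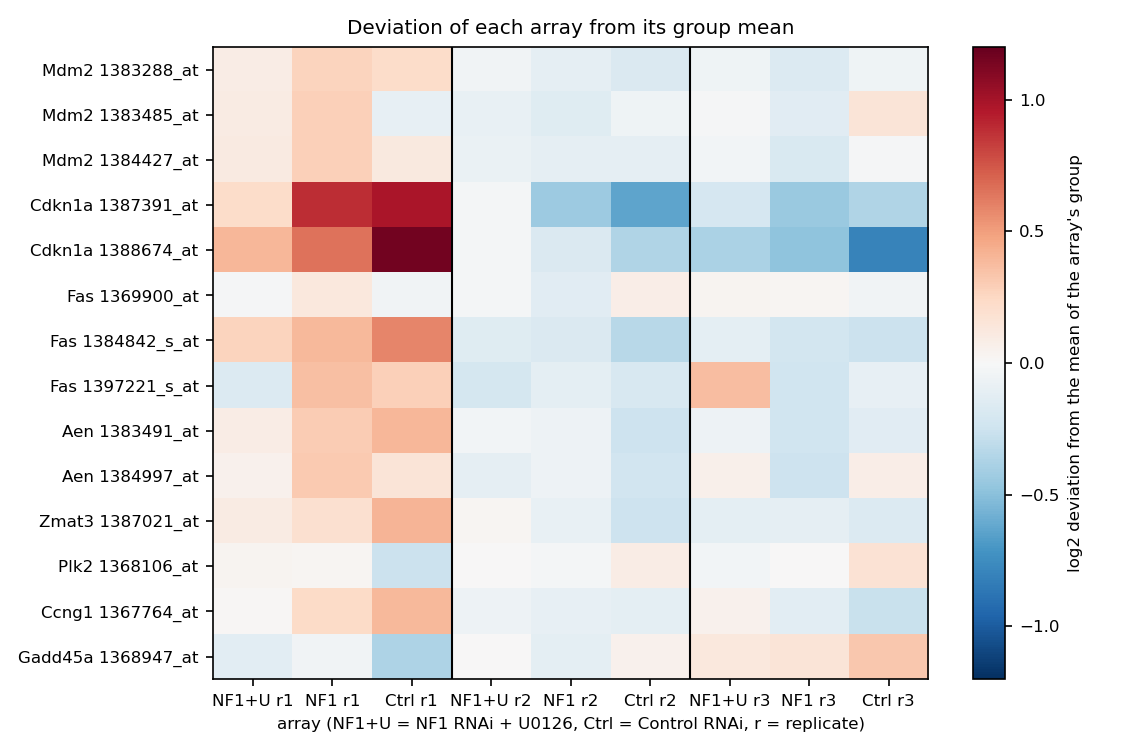
Heat map of the log2 deviation of each of the 14 probe sets (down the page) from the mean of the array's group, for the 9 arrays (across) ordered by replicate number, with red above and blue below the mean. The replicate 1 columns are mostly red, deepest for Cdkn1a in Control RNAi, and Plk2 and Gadd45a are blue in Control RNAi replicate 1.

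The shares of all probe sets that rose and fell, 4.45% and 5.58% for NF1 RNAi + U0126 against NF1 RNAi and 10.6% and 9.84% for NF1 RNAi against Control RNAi, are the background for the lists of other p53 genes. Of a list of 20 further p53 regulators, 18 genes had a probe set, 30 in all, and for NF1 RNAi + U0126 against NF1 RNAi 1 rose and 1 fell, with a median of -0.01. Cdkn2a, which encodes the Mdm2 inhibitor Arf and the cell cycle inhibitor p16, rose by 0.54 ± 0.09 (adjusted p = 0.00674), and Mdm4, a relative of Mdm2 that represses p53, fell by 0.45 ± 0.11 with 1382417_at (adjusted p = 0.0394, kept in 2 of 9 fits that left out 1 array). The other Mdm4 probe set, 1379259_at, differed by -0.18 ± 0.08 and did not pass (adjusted p = 0.216). Mdm4 1382417_at averaged 250 ± 28.0 in NF1 RNAi + U0126 cells, 339 ± 15.7 in NF1 RNAi cells and 229 ± 31.8 in Control RNAi cells (intensity, SD, n = 3 each), and its mean was highest in NF1 RNAi cells. In NF1 RNAi cells against Control RNAi cells, Mdm4 rose by 0.57 ± 0.11 with 1382417_at and differed by 0.23 ± 0.08 with 1379259_at, which did not pass (adjusted p = 0.0633), and Hipk2, a kinase that phosphorylates p53, rose by 0.79 ± 0.11 (adjusted p = 0.00735 for Mdm4 1382417_at and 0.00112 for Hipk2). In all, 6 of the 30 rose and 3 fell, and 5 rose and 3 fell without Control RNAi replicate 1. Of all probe sets, 9.74% rose and 10.1% fell without that array. Chek1, a DNA damage checkpoint kinase, fell by 0.81 and Ppm1d, a phosphatase that damps p53, fell by 0.63 (adjusted p = 0.0188 and 0.00699); the Chek1 call was lost in 2 of 9 fits that left out 1 array.

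Among 25 further p53 targets in arrest, repair and metabolism, 20 genes had a probe set, 25 in all, and 3 rose and 2 fell for NF1 RNAi + U0126 against NF1 RNAi, with a median of 0.00. Steap3, a metalloreductase, rose by 0.83 ± 0.12 (adjusted p = 0.00299) and Phlda3, an inhibitor of Akt, by 0.40 ± 0.10 (adjusted p = 0.0409), while the stress protein gene Sesn1 fell by 0.44 and Pml, which organises nuclear bodies, fell by 0.35. The calls of Phlda3, Sesn1 and Pml were kept in 3, 2 and 5 of 9 fits that left out 1 array. In the same list, 2 rose and 2 fell in NF1 RNAi against Control RNAi cells, led by the repair nuclease gene Ercc5 (1.53 ± 0.32, adjusted p = 0.00826). Ppm1d, 1 of the 2 that fell, is also counted among the p53 regulators. Without Control RNAi replicate 1, 2 rose and 4 fell, where 9.74% of all probe sets rose and 10.1% fell.

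Of 17 further p53 targets that promote cell death, 11 genes had a probe set, 17 in all, and 5 rose and none fell for NF1 RNAi + U0126 against NF1 RNAi, with a median of 0.01. They were led by Bid, a BH3 protein (0.53 ± 0.12), the caspase gene Casp6 (0.49 ± 0.08) and Bbc3, the BH3 protein also called Puma (0.44 ± 0.07), with adjusted p of 0.0235, 0.00628 and 0.00537. This Bid probe set was dim, at mean log2 5.49 in NF1 RNAi + U0126, 4.96 in NF1 RNAi and 5.42 in Control RNAi cells. The other Bid probe set averaged log2 6.33, 6.03 and 6.31 in the same order. With the replicate block 5 probe sets of this list rose and 2 fell, where 6.44% of all probe sets rose and 8.12% fell. In NF1 RNAi against Control RNAi cells 6 fell and 1 rose. Without Control RNAi replicate 1, 4 fell and none rose, where 10.1% of all probe sets fell and 9.74% rose. With all arrays, Apaf1, the core of the apoptosome, fell by 0.63, Ei24 by 0.61 and Siva1 by 0.50 (adjusted p = 0.00158, 0.00346 and 0.00524). The Siva1 fall came from 1 probe set. The other Siva1 probe set averaged log2 6.57 ± 0.13 in NF1 RNAi cells and 6.61 ± 0.02 in Control RNAi cells (SD, n = 3 each). The rise of Bid, and its difference of -0.46 in NF1 RNAi against Control RNAi (adjusted p = 0.0244), were kept in 4 and 6 of 9 fits that left out 1 array.

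Relatives of the p53 targets that belong to the same protein families were also measured. Of 25 probe sets of 22 genes, 2 rose and 1 fell for NF1 RNAi + U0126 against NF1 RNAi, with a median of 0.06, and 8 rose and 2 fell against Control RNAi, where 14.2% of all probe sets rose and 13.9% fell. The probe set that fell against NF1 RNAi, Mdm4 1382417_at, is also counted among the p53 regulators. Without Control RNAi replicate 1, 4 rose and 4 fell against NF1 RNAi, where 5.92% of all probe sets rose and 7.41% fell. Gadd45b, a relative of Gadd45a, averaged 2577 ± 156 in NF1 RNAi + U0126 cells, 1444 ± 65.7 in NF1 RNAi cells and 893 ± 238 in Control RNAi cells (intensity, SD, n = 3 each), and rose by 0.83 ± 0.17 against NF1 RNAi and by 1.56 ± 0.17 against Control RNAi (adjusted p = 0.0157 and 0.000189). Its rise against NF1 RNAi was kept in 6 of 9 fits that left out 1 array. Plk4, a centriole kinase, fell by 2.13 against Control RNAi (adjusted p = 0.00283), with values from -2.48 to -1.56 when 1 array was left out. It averaged 18.4 ± 1.11 in NF1 RNAi + U0126 cells and 100 ± 75.5 in Control RNAi cells (intensity, SD, n = 3 each). It was dim, not at log2 6 or more in at least 3 arrays.

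Among cell cycle genes that p21 is known to repress, a part fell in both NF1 RNAi groups relative to controls. Of 22 probe sets of 14 cell cycle genes, 12 fell and none rose for NF1 RNAi + U0126 against Control RNAi, 9 fell for NF1 RNAi against Control RNAi, and 1 fell for NF1 RNAi + U0126 against NF1 RNAi, while 10, 13 and 21 did not pass. Over all probe sets, 13.9%, 9.84% and 5.58% fell in the same order of comparisons. Without Control RNAi replicate 1, 14 fell for NF1 RNAi + U0126 against Control RNAi and 13 for NF1 RNAi against Control RNAi, where 14.8% and 10.1% of all probe sets fell. The list's median against Control RNAi was -1.18 for NF1 RNAi + U0126 and -1.07 for NF1 RNAi, and -0.63 and -0.41 without that array. The ERK target list, the check on the inhibitor, had 11 of 20 probe sets lower with U0126 than in NF1 RNAi cells and none higher, with Dusp6, a phosphatase induced by ERK, falling by 3.86, 3.29 and 2.84 with its 3 probe sets (adjusted p = 0.000785, 0.00105 and 0.00411). For NF1 RNAi against Control RNAi, 2 of the 20 rose and none fell, with a median of 0.02, where 10.6% of all probe sets rose. Dusp6 differed there by 0.05, 0.15 and 0.10, and none of these passed (adjusted p = 0.96, 0.85 and 0.911). In bulk RNA, fewer cells of a kind and less RNA per cell cannot be told apart. Relative to NF1 RNAi cells, 4.45% of all probe sets rose and 5.58% fell with U0126, the background for the marker counts that follow. Of 15 fibroblast probe sets, 4 rose and 1 fell with U0126. Ogn, an extracellular matrix gene of fibroblasts, rose with U0126 by 1.26 to 1.42 with its 4 probe sets, while the summed fibroblast intensity was 19774 to 27361 in NF1 RNAi + U0126 cells and 24329 to 25633 in NF1 RNAi cells. The summed macrophage intensity was 586 to 633 in NF1 RNAi + U0126 cells and 557 to 575 in NF1 RNAi cells. Of its 11 probe sets 1 rose and none fell, with a median of 0.06, and the 1 that rose was Cd68, a lysosomal protein (0.90 ± 0.12, adjusted p = 0.00166). Of 9 Schwann cell probe sets 4 fell and none rose with U0126, with summed intensities of 27659 to 29228 in NF1 RNAi + U0126 cells and 30354 to 32704 in NF1 RNAi cells. Of 10 neuronal probe sets 2 rose and 1 fell, with sums of 7208 to 7618 in NF1 RNAi + U0126 cells and 4552 to 5709 in NF1 RNAi cells. Those that rose were of the neurofilament genes Nefm (1.55 ± 0.24) and Nefl (1.28 ± 0.34), with adjusted p of 0.00424 and 0.0457. Uchl1 fell by 0.51 ± 0.13 (adjusted p = 0.0343), so these markers did not move together. The Nefl and Uchl1 calls were kept in 2 and 3 of 9 fits that left out 1 array. Mean intensity in NF1 RNAi + U0126 and NF1 RNAi cells was 2386 and 845 for Nefm, and 2036 and 2884 for Uchl1. The part of these markers in the p53 target values was not tested.

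Within the p53 targets, probe sets of a gene followed each other over the 9 arrays, with Pearson r of at least 0.98 for Mdm2, 0.93 for Cdkn1a and 0.97 for Aen, but 0.57 to 0.83 for Fas, where the dim probe sets follow poorly. Between genes, the deviations from the group means of Cdkn1a, Aen, Zmat3, Ccng1 and Fas moved together, with r of 0.89 to 0.97 over 9 arrays, while those of Gadd45a ran against Cdkn1a (r = -0.90) and with Plk2 (r = 0.81). These r values are a description over arrays that share replicate numbers. The genes whose pattern over the 9 arrays was most like that of Mdm2 1384427_at, of 6246 candidate probe sets, were Taldo1 (r = 0.993), Podnl1 (0.992) and Usp19 (0.992). Those most like Cdkn1a 1388674_at, of 6247, were Sumf2 (0.964), Aga (0.961) and Osbpl6 (0.957).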

How the data were processed

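Total RNA from 9 cultures was hybridised to Affymetrix rat arrays, 1 array per culture. The deposited table holds linear intensity values that the authors made with RMA, which is what the submitters' processing notes record. Neither the software nor its probe set definition is given in the sources used here. Of 31099 probe sets, 57 controls were left out, and a platform annotation gave 1 gene for 20826 of the remaining 31042, several for 436 and none for 9780. No array gives a read depth, so the number of arrays limits the precision.

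A pseudocount of 1 was added before log2, which understates changes of dim probe sets, and no low-value filter was applied. A group-means model over all 9 arrays was fitted with limma 3.58.1 in R 4.3.3, with Benjamini-Hochberg adjustment over all 31042 probe sets. Named genes are every probe set of the p53 targets, Nf1, Dusp6 and Mdm4, genes out of up to 4 probe sets per other list and comparison with the largest called difference, and the 3 genes most like Mdm2 and Cdkn1a. The members and lists were chosen with earlier results of these data known.

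Deviations from group means correlated positively in all 9 pairs of arrays with the same number (r = 0.14 to 0.59), against -0.48 to 0.37 for different numbers, so results with the replicate number as a block are given beside the p53 target calls that it changes. Most list counts above have no block, and it changed several. For NF1 RNAi + U0126 against NF1 RNAi it gave 3 rises and 1 fall for p53 regulators, 5 and 3 for arrest, repair and metabolism, and 4 and 1 for relatives. In that comparison 13 ERK target probe sets fell with the block. Of all probe sets, 6.44% rose and 8.12% fell there with the block. For NF1 RNAi against Control RNAi, 3 rose and 6 fell for arrest, repair and metabolism, and 11 cell cycle probe sets fell. With the block, 13.2% of all probe sets rose and 12.6% fell in this comparison. The fit reported first has no block, and the labels do not say what a number marks. In a self-test for NF1 RNAi against Control RNAi over 31042 probe sets, 52% of changes of 0.5, 90% of 1 and 98% of 2 on the log2 scale that were added to drawn data were recovered. Of the calls, 5.17% fell on unchanged probe sets. The arrays were drawn independently, with nothing shared by arrays of the same number, so these shares do not describe data with such sharing. Sequences were searched with Python 3.11.15 and figures drawn with matplotlib 3.10.9.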

Additional observations from a re-analysis of the deposited data

How the results depend on the processing

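For NF1 RNAi against Control RNAi the count of p53 target probe sets past the threshold was 0, and it was 4 with the replicate block, 1 with the low-value filter, 1 with median centring, 1 with quantile normalization, 1 with an intensity trend and robust prior, and 6 without replicate 1 in all 3 groups. It ranged from 0 to 4 when 1 array was left out. Of all probe sets, 20.4% passed in the fit reported first, 25.8% with the block and 20.4% without replicate 1. For NF1 RNAi + U0126 against NF1 RNAi the count of 10 became 12 with the replicate block, 6 with 1 probe set per gene (where 8 probe sets are in the test) and 5 at an adjusted p under 0.01, and ranged from 5 to 11 when 1 array was left out. For NF1 RNAi + U0126 against Control RNAi the count of 10 became 11 with the replicate block and stayed between 9 and 11 when 1 array was left out. Over all probe sets, the counts with 1 probe set per gene were 3734 for NF1 RNAi against Control RNAi, 1951 for NF1 RNAi + U0126 against NF1 RNAi and 5047 for NF1 RNAi + U0126 against Control RNAi, from fewer tests, and at an adjusted p under 0.01 they were 3365, 1363 and 5463 in the same order of comparisons. Leaving out 1 array gave 4550 to 6299, 1676 to 4140 and 6978 to 8923, where the counts with all arrays were 6338, 3113 and 8710, and the replicate block gave 8011, 4520 and 10257.

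The sign changed in NF1 RNAi against Control RNAi for 3 probe sets that did not pass. Fas 1369900_at was 0.00 under quantile normalization and -0.08 without replicate 1 in all 3 groups, and ranged from -0.06 to 0.08 when 1 array was left out. Gadd45a was -0.01 under quantile normalization and -0.16 without replicate 1 in all 3 groups, and ranged from -0.18 to 0.16. Aen 1384997_at ranged from -0.01 to 0.27. Over all differences of the p53 target probe sets and alternatives, 629 kept their direction and side of the threshold, 32 passed where the value reported had not, and 36 no longer passed. The cause of these changes was not tested, and some alternatives use fewer arrays or tests. With 3 arrays per group, the number of arrays limits every comparison, and 2 of the 3 Fas probe sets were dim.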
